A study of Mus musculus with 6 samples.

Results

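RNA of 9 genes of fibrin deposition and its removal is described here for mouse hippocampus. These are the 3 fibrinogen chains Fga, Fgb and Fgg, the starter of coagulation F3 (tissue factor) and the fibrin cross-linker F13a1. The others are the thrombin receptor Thbd (thrombomodulin), the plasminogen activators Plat and Plau, and the urokinase receptor Plaur. Fibrin itself was not measured here. All 9 genes were taken by name from the 41386 genes of the deposited count table. Gene expression was measured by bulk RNA-seq in 6 libraries of 2 groups. In the ischemia/reperfusion (I/R) group, 3 libraries, the left middle cerebral artery of wild type C57BL/6 mice (C57BL/6J in the study's methods) was blocked with a filament for 1.5 h and reperfused for 24 h. In the sham group, also 3 libraries, mice of the same strain had the same surgery with no filament inserted. The mice were 56 days old and, per the study's methods, male, and the hippocampus of the operated side was taken. The methods describe 3 hippocampi pooled per replicate, in a passage that covers the protein and the RNA work, so the error given is that of pools and says nothing of single animals.

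Tissue factor on cells outside the blood stream binds factor VII and starts the cascade that ends in thrombin, which cuts the fibrinogen hexamer of paired alpha, beta and gamma chains into fibrin. Thrombomodulin on endothelial cells diverts thrombin to the activation of protein C, which shuts the cascade down, while factor XIII cross-links the fibrin that has formed. Plasmin dissolves fibrin, and it is made from plasminogen by tissue-type plasminogen activator (tPA, from Plat) and by urokinase (from Plau), the latter held at cell surfaces by its receptor (from Plaur). In the brain, tPA also acts in synaptic plasticity and is used as a drug against clots in ischemic stroke, and fibrinogen itself is made mainly by hepatocytes of the liver.

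Each library held between 37493042 and 44788547 counts, and a count of 3, taken as the floor of what a library can tell from 0, was 0.0738 to 0.0871 CPM (counts per 1e6 counts of the library) in sham. Levels are in CPM on library sizes scaled with TMM, the trimmed mean method of edgeR. Changes are log2 fold changes of I/R over sham with their standard error (SE) from edgeR's quasi-likelihood test, and a gene passed at a Benjamini-Hochberg adjusted p under 0.05 over 18569 tested genes with a fold over 1.2. By that rule 41.8% of all tested genes passed, and 4054 genes (21.8%) were higher and 3702 (19.9%) lower in I/R. Markers of hippocampal neurons were present in all libraries, with a summed level of 198 to 485 CPM in I/R and 901 to 952 CPM in sham, and 5 of 7 were lower in I/R, as were 6 of 6 general neuronal markers (1624 to 3637 against 6647 to 6965 CPM). Single libraries stood apart. I/R replicate 1 was the highest I/R library in 73.1% of the genes that were higher in I/R, and it had the lowest sum of both neuronal lists. Choroid plexus markers summed to 140 CPM in I/R replicate 3 and to 172 CPM in sham replicate 1 but to between 2260 and 6214 CPM in the other libraries. In bulk tissue, a change in the number of cells of a type and a change of RNA per cell cannot be told apart.

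Of the 9 genes, 7 passed the count filter and were tested, and Fgb and Fgg did not pass it. All 7 tested genes were higher in I/R, where 21.8% of all tested genes were. In 7 of 7 the I/R libraries lay above the sham libraries with no overlap, as they did in 29.3% of all tested genes, and 5 of 7 were higher by more than 2-fold, against 10.2% of all tested genes. Fga entered the test through its I/R libraries alone and so had to differ. Without it, 6 of 6 were higher with no overlap, and those over 2-fold were F13a1, Plau, Plaur and Thbd. The size of the change ran from 0.38 for F3 to 6.00 for Fga on the log2 scale. The order among I/R libraries was shared: replicate 1 was the highest for 7 of the 7 tested genes and replicate 3 the lowest for 6, all but F3, whose lowest was replicate 2.

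**Figure D1:**
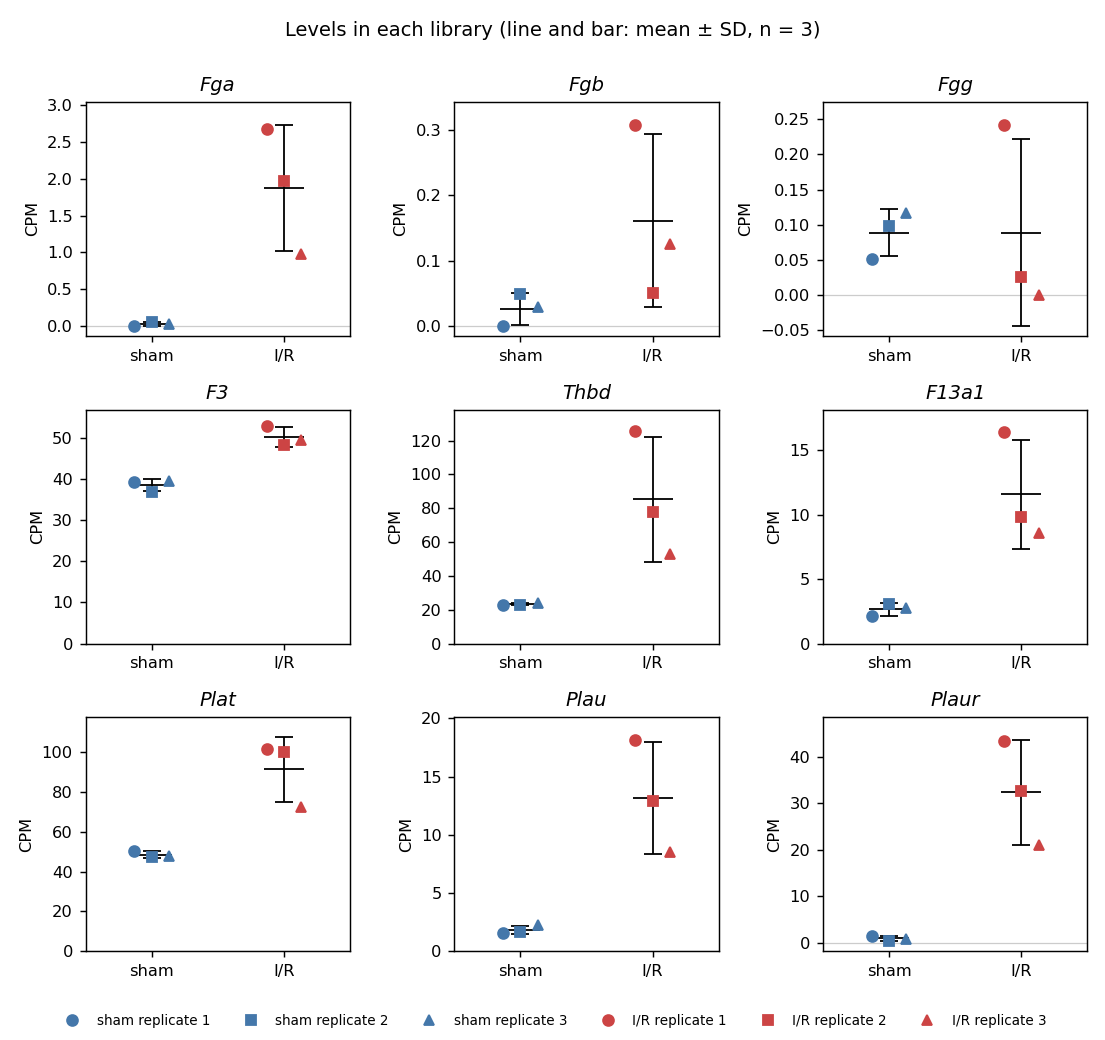
Levels of the 9 genes in each library in CPM (y axes start at 0 or below and differ between panels), with sham in blue and I/R in red, symbols for replicates 1 to 3, and the line and bar for the mean and SD of 3 libraries. The red points lie above all blue points in Fga, F3, Thbd, F13a1, Plat, Plau and Plaur, the groups meet in Fgb, where an I/R and a sham library had the same count, and they overlap in Fgg.

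The alpha chain gene Fga, at the floor in every sham library, was the fibrinogen chain that rose. It had 122, 79 and 39 counts in the I/R libraries (replicates 1, 2 and 3 in this order throughout) against 0, 2 and 1 after sham surgery. Its level was 1.88 ± 0.856 CPM in I/R (SD, n = 3), which is at least 23.7-fold higher than the mean sham floor. The fitted log2 fold change was 6.00 (SE 0.73, edgeR adjusted p = 0.000964), the 76th highest of all tested genes by fold, and its size depends on sham counts near 0. It was 6.80 without sham replicate 2, which held 2 of the 3 sham counts. The level stayed low in absolute terms, since even I/R replicate 1 had only 2.68 CPM.

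The other chains gave too few counts for a test. The beta chain gene Fgb had 14, 2 and 5 counts after I/R against 0, 2 and 1 after sham surgery, so that I/R replicate 2 and sham replicate 2 held the same count. When edgeR was run with no count filter, Fgb had a fitted value of 2.47 on the log2 scale (SE 1.31, adjusted p = 0.201). The gamma chain gene Fgg had 11, 1 and 0 counts after I/R against 2, 4 and 4 after sham surgery, and the I/R values lay on both sides of the sham values (0.00, SE 1.07, adjusted p = 0.998 with no filter). At this depth no difference was detectable for either gene. Summed over a group, the chains had 240, 21 and 12 counts for Fga, Fgb and Fgg after I/R against 3, 3 and 10 counts after sham surgery.

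The chains were thus far from equal in I/R. Fga held 83.0% of the counts of the 3 chains in I/R replicate 1 (95% Wilson interval 76.1 to 88.2), 96.3% in replicate 2 (89.8 to 98.7) and 88.6% in replicate 3 (76.0 to 95.05). In sham it held 0 of 2 counts, 25.0% of 8 and 16.7% of 6. These shares were chosen after the values were seen and have no test, and their intervals cover counting error only. Listed lengths differ between the genes (2588 bases for Fga, 3810 for Fgb and 1730 for Fgg), and per length Fga also stood above the others in I/R, at 0.889 ± 0.439 FPKM (fragments per kilobase of gene and per 1e6 reads) against 0.0472 ± 0.0409 for Fgb and 0.0593 ± 0.0896 for Fgg.

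The chain genes lie next to each other. By the coordinates of the table (BALB/cJ assembly), Fgg runs on chromosome 3 from 80192923 to 80200143 and Fga from 80211181 to 80218745, both on the plus strand, and Fgb from 80225268 to 80235043 on the minus strand. Gaps of 11038 and 6523 bases separate them, and the next gene, the splicing factor gene Plrg1, 8250 bases beyond Fgb, had a log2 fold change of 0.46 (edgeR adjusted p = 0.00468). The unequal chains were therefore neighbours on the chromosome. A gene model on the other strand, Gm30097, overlaps Fgg and shares 3.23% of its stretches of 50 bases, and since the use of strand in counting is not given in the sources used here, the few Fgg counts are uncertain. No stretch of Fga or Fgb was shared with another gene.

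Because the 3 chain genes are neighbours with unlike counts, the 250 bases before their transcription starts are shown, from RefSeq on GRCm38.p6, read 5′ to 3′ along the gene, with matches to the motifs named below in capitals. They are Fga at chr3:83025903-83026152 on the plus strand, Fgb at chr3:83049864-83050113 on the minus strand and Fgg at chr3:83007474-83007723 on the plus strand.
Fga: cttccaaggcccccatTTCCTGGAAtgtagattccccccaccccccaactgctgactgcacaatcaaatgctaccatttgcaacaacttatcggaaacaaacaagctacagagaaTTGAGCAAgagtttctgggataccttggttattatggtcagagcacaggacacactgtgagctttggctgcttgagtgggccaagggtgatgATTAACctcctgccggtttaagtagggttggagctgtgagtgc
Fgb: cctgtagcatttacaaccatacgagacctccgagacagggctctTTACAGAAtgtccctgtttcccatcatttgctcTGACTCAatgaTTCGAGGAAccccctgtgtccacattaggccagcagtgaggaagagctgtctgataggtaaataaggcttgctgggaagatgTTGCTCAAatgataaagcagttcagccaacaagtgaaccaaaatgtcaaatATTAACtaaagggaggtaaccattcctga
Fgg: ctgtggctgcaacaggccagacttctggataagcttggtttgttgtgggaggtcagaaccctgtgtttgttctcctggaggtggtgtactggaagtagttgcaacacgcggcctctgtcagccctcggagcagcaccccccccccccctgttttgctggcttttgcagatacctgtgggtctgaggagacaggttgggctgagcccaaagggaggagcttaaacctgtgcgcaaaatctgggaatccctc

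Fga and Fgb had matches to the same kinds of motif, while the Fgg window had none. Letters were searched on both strands. A STAT motif (TTCNNNGAA), the type bound by the interleukin 6 pathway of the acute phase, was found in Fga 234 bases and in Fgb 162 bases before the start, and 7.02% of 32851 RefSeq windows of the same length hold one. An HNF1-type motif (GTTAAT), after a liver transcription factor, was found in Fga at 43 and in Fgb at 29 bases before the start, against 6.43% of windows. A C/EBP motif (TTNNGNAA) was found once in Fga and at 2 places in Fgb, against 36.8% of windows, and an AP-1 motif (TGANTCA) in Fgb alone of these chains, against 6.75%. The TATA box letters (TATAAA, 12.4% of windows) and the CRE letters (TGACGTCA, 1.55%) were in none of the windows of the 6 genes that RefSeq gave. A match is a description of letters and not of a bound site.

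Markers of hepatocytes, the main source of fibrinogen, were close to the floor. Their summed level was 1.12 to 1.58 CPM in I/R and 0.639 to 0.910 CPM in sham, with 5 of 7 markers in the table and 3 tested. The albumin gene Alb was the 1 that passed, with 11, 12 and 10 counts after I/R against 0, 2 and 0 after sham surgery, at least 3.33-fold against the floor. It entered the test through I/R alone, and it no longer passed without sham replicate 1 (edgeR adjusted p = 0.0546) or sham replicate 3 (0.0557). Ahsg had 5, 1 and 1 counts in I/R and 0 in every sham library. The part of such RNA in the Fga result was not tested.

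F3 and Thbd, the starter of coagulation and its endothelial brake, both rose, and Thbd rose by more. F3 had the smallest change of the 7 tested genes. Its counts were 2408, 1934 and 1979 after I/R against 1536, 1499 and 1363 after sham surgery. The levels were 50.2 ± 2.36 CPM after I/R against 38.6 ± 1.50 CPM after sham surgery (SD, n = 3 each), a 1.30-fold difference. The log2 fold change was 0.38 (SE 0.08, edgeR adjusted p = 0.00882). The I/R libraries differed little from each other for this gene, the highest being 1.09 times the lowest. With library size only as scaling, the value was 0.64, but the median of all tested genes then also moved, from 0.03 to 0.28. F3 no longer passed when I/R replicate 3 and sham replicate 1 were both left out (0.39, edgeR adjusted p = 0.0716), an alternative added after the data were seen.

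F3 lies on chromosome 3 from 119615718 to 119627313 on the plus strand of the BALB/cJ assembly. Its promoter is shown because F3 had the steadiest high level, in the same layout as before, from chr3:121723287-121723536 on the plus strand of GRCm38.p6.
F3: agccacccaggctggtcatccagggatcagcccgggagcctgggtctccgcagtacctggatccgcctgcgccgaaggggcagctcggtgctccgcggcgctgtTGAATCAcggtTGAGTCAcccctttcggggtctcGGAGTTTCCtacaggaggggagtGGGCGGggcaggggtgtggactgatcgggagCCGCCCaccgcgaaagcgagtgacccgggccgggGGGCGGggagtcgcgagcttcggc

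The F3 window, 70.0% G and C where the median window has 52.4%, held 2 AP-1 motifs, at 146 and 135 bases before the start, an NF-kB-type motif (GGNNTTTCC, 4.93% of windows) at 112 bases and 3 GC boxes (GGGCGG, 32.7% of windows). AP-1 and NF-kB are transcription factors of stress and inflammatory responses, and the GC box is bound by SP1 and related factors. None of the STAT, HNF1-type or C/EBP motifs seen in Fga was in it.

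Thbd, in contrast, varied little in sham and widely in I/R. Its counts were 5710, 3102 and 2121 after I/R against 885, 939 and 825 after sham surgery. That gave 85.3 ± 36.8 CPM after I/R against 23.2 ± 0.667 CPM after sham surgery, a 3.67-fold difference in means. The log2 fold change was 1.88 (SE 0.28, edgeR adjusted p = 0.00183). Replicate 1 was 2.37 times replicate 3 within I/R, and the change was 1.49 with I/R replicate 1 left out. Thbd, a gene without introns, lies on chromosome 2 from 146956135 to 146959857 on the minus strand. Its neighbour Sstr4, a somatostatin receptor gene 8287 bases away, moved the other way (log2 fold change -1.69, edgeR adjusted p = 0.0017).

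The ratio of F3 to Thbd within a library does not depend on scaling between libraries. On FPKM it was 1.37, 2.02 and 3.03 after I/R against 5.63, 5.18 and 5.36 after sham surgery. The F3 FPKM rest on 1148 bases where 1872 are listed. On the listed length each ratio would be 1.63 times lower, with the same difference between groups on the log2 scale. The sham libraries were alike and all I/R libraries lay below them. On the log2 scale the means were 1.02 ± 0.57 in I/R and 2.43 ± 0.06 in sham, a difference of -1.41 (exact two-sided permutation test, p = 0.1, the smallest that 3 libraries against 3 can give).

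Endothelial markers were mostly higher in I/R as well. Their summed level was 563, 443 and 371 CPM in I/R and 273 to 275 CPM in sham. The order of the I/R libraries was that of Thbd and not that of F3, which was lowest in replicate 2. Over all tested genes 21.8% were higher and 19.9% lower. Of 8 markers 6 were higher and 2 lower, the latter being Slco1a4 (-1.17) and Ocln (-0.49), a transporter and a tight junction gene of brain endothelium. Both lost the call without some of the sham replicates (Slco1a4 without any of them, Ocln without replicate 2 or 3). The gene of vascular cadherin, Cdh5, was among the 3 genes whose pattern over the libraries was most like that of Thbd, and it had a log2 fold change of 1.91. The part of endothelial RNA in the Thbd result was not tested.

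F13a1, the A subunit of factor XIII, is known from platelets and from tissue macrophages. It had 747, 392 and 342 counts after I/R against 83, 126 and 95 counts after sham surgery. The level was 11.6 ± 4.22 CPM after I/R against 2.66 ± 0.494 CPM after sham surgery, 4.35-fold higher in I/R. Every I/R library was above every sham library, with replicate 1 standing above replicates 2 and 3. The log2 fold change was 2.12 (SE 0.29, edgeR adjusted p = 0.00134), and 1.78 without I/R replicate 1. The gene lies on chromosome 13 from 34125795 to 34303744 on the minus strand, and 0.404% of its stretches of 50 bases occur in other genes. Its RefSeq windows, from 2 starts, held a CCAAT box (33.8% of windows) and a C/EBP motif at the first start and an NF-kB-type motif at the other.

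Markers of the cells known to hold F13a1 moved as well. The summed level of border macrophage and monocyte markers was 69.7 to 152 CPM in I/R and 10.03 to 13.1 CPM in sham. Of 9 tested, 7 were higher, against 21.8% of all tested genes. These included the border macrophage genes Mrc1 (1.22), Cd163 (1.30) and Lyve1 (2.67) and, by larger log2 fold changes, Arg1 (5.95), Chil3 (5.85) and Lgals3 (5.36), genes of activated or infiltrating macrophages. Arg1 (9, 4 and 0 sham counts), Chil3 (0, 7 and 0) and Ccr2 (8, 9 and 1) passed the count filter through I/R alone. These 3 genes so had to differ. Lgals3 alone held 88.7, 49.1 and 39.6 CPM of the I/R sums. Ms4a7 (1.61, edgeR adjusted p = 0.175) and Cbr2 (0.40, edgeR adjusted p = 0.632) did not pass. Single libraries moved some of these values: without I/R replicate 1 Arg1 was at 4.67 and Chil3 at 4.80, without sham replicate 1 Arg1 was at 6.99, and without sham replicate 2 Chil3 was at 10.19 and Cd163 no longer passed (edgeR adjusted p = 0.0518). Platelet markers summed to 17.0 to 31.2 CPM in I/R and 12.4 to 13.03 CPM in sham, with Pf4 (3.49) and Itga2b (1.76) higher, Gp1bb (-0.72) lower, and Gp9 and Gp1ba not passing. The part of either cell type in the F13a1 result was not tested.

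The plasminogen activators differed in level and in change. Plat, the activator with the higher level in both groups, had 4634, 4002 and 2896 counts after I/R against 1977, 1924 and 1641 after sham surgery. Its level was 91.4 ± 16.5 CPM after I/R against 48.5 ± 1.81 CPM after sham surgery, 1.88-fold higher in I/R. The log2 fold change was 0.91 (SE 0.13, edgeR adjusted p = 0.00183). I/R replicates 1 and 2 were alike at 102 and 100 CPM, and replicate 3 was lower at 72.4 CPM but above all sham libraries. Plat lies on chromosome 8 from 20069094 to 20098429 on the plus strand, and the next gene, Ap3m2, 4800 bases on, fell (log2 fold change -1.03, edgeR adjusted p = 0.00349).

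Plau started low and rose by more. It had 826, 518 and 341 counts after I/R against 62, 68 and 77 after sham surgery. The level was 13.2 ± 4.81 CPM after I/R against 1.83 ± 0.353 CPM after sham surgery, a 7.21-fold difference, or 2.85 as the fitted log2 fold change (SE 0.30, edgeR adjusted p = 0.000664). The lowest I/R library was still above the highest sham library, at 8.52 against 2.24 CPM. The gene lies on chromosome 14 from 13401872 to 13408567 on the plus strand.

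The share of Plau in the pair of activators was higher in every I/R library than in every sham library. Within a library, the FPKM ratio of Plau to Plat was 0.189, 0.137 and 0.125 after I/R against 0.0333, 0.0375 and 0.0498 after sham surgery. On the log2 scale this was -2.76 ± 0.31 in I/R and -4.66 ± 0.30 in sham, a difference of 1.90 (exact two-sided permutation test, p = 0.1, the smallest possible). Plat nonetheless stayed the more abundant transcript per length in all 6 libraries.

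Plaur, the receptor that holds urokinase on the cell surface, had the largest change of the genes with counts above the floor in sham. Its counts were 1978, 1307 and 840 after I/R against 59, 13 and 27 after sham surgery. The level rose from 0.871 ± 0.60 CPM in sham to 32.4 ± 11.2 CPM in I/R, a 37.1-fold difference in means. The log2 fold change was 5.21 (SE 0.49, edgeR adjusted p = 0.000432), the 119th highest of all tested genes. Sham libraries differed among themselves, with replicate 1 at 1.51 CPM and replicate 2 at 0.320 CPM. The change was 5.89 without sham replicate 1 (6.12 with I/R replicate 3 left out as well), 4.79 without sham replicate 2, 4.94 without I/R replicate 1 and 4.22 with limma on log2(FPKM + 1). Even the lowest I/R library, at 21.0 CPM, was far above all of sham.

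The receptor gene was also higher relative to its ligand gene in every I/R library. Plaur FPKM over Plau FPKM was 4.92, 5.19 and 5.07 in the I/R libraries and 1.96, 0.393 and 0.721 in the sham libraries. The Plaur FPKM rest on 1132 bases where 2009 are listed. On the listed length each ratio would be 1.77 times lower, with the same difference between groups on the log2 scale. The I/R libraries had nearly the same ratio, since both genes differed about as much between replicates 1 and 3 (2.07 times for Plaur and 2.13 times for Plau). The log2 ratio was 2.34 ± 0.04 in I/R and -0.28 ± 1.17 in sham, a difference of 2.62 (exact two-sided permutation test, p = 0.1, the smallest possible). These ratios rest on few sham counts for Plaur, and the difference was 3.25 without sham replicate 1 and 2.09 without sham replicate 2.

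**Figure D2:**
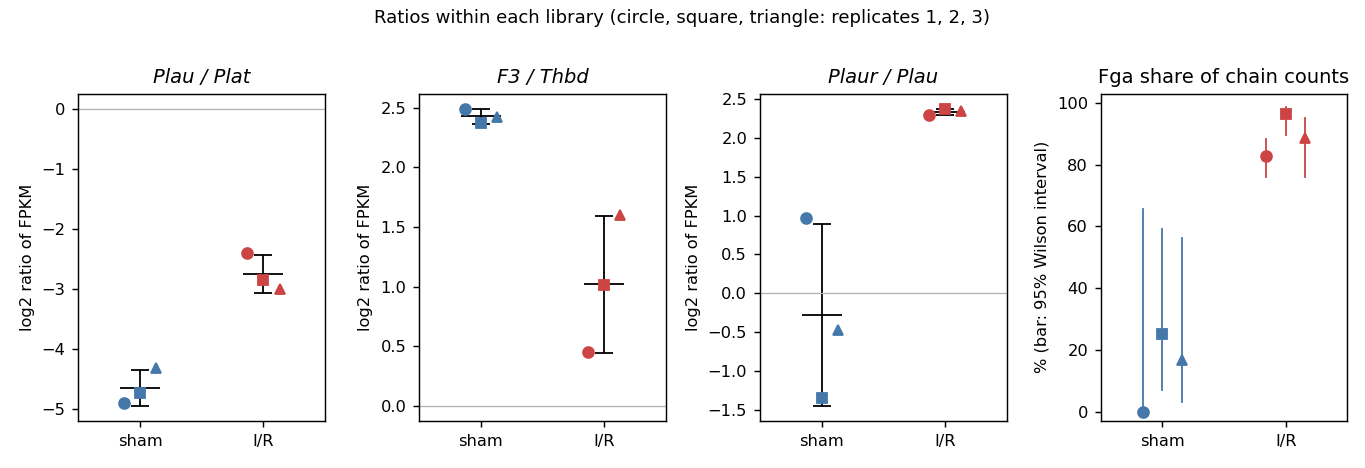
The first 3 panels plot the log2 ratio of FPKM of Plau to Plat, F3 to Thbd and Plaur to Plau in each library, with the mean and SD of 3 libraries as line and bar, and the last plots the share of Fga among the counts of the 3 fibrinogen chains in % with 95% Wilson intervals. No ratio overlaps between sham (blue) and I/R (red), and the I/R ratios of Plaur to Plau have an SD of 0.04 on the log2 scale.

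Plaur lies on chromosome 7 from 22478427 to 22492465 on the plus strand. The 250 bases before its start, shown because no other of the 9 genes with sham counts above the floor changed as much, are at chr7:24462233-24462482 on the plus strand of GRCm38.p6, with motif matches in capitals.
Plaur: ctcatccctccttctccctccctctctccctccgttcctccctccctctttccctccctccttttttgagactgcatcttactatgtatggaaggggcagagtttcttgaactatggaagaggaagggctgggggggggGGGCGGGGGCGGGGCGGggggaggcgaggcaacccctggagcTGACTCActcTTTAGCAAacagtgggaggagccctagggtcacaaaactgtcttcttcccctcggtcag

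The Plaur window held an AP-1 motif 69 bases and a C/EBP motif 59 bases before the start, with 3 bases between them, and 3 GC boxes within one run of G and C, of which 2 overlap. F3 was the other of these genes to hold both AP-1 and GC box letters, and its change was the smallest.

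**Figure D3:**
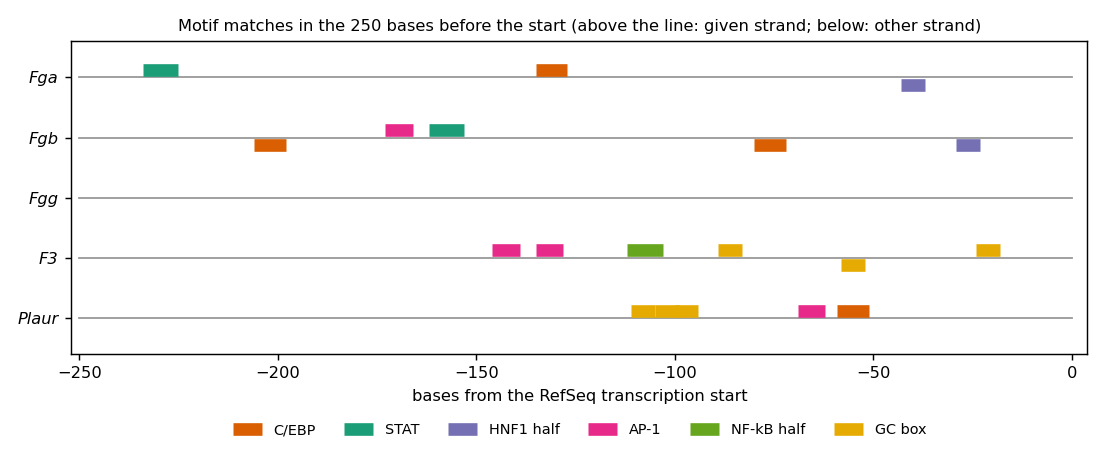
Positions of motif matches in the 250 bases before the RefSeq transcription start (x axis, bases from the start) of Fga, Fgb, Fgg, F3 and Plaur, with boxes above the line for matches on the strand of the gene and below it for the other strand. STAT and HNF1-type matches are seen in Fga and Fgb alone, GC boxes in F3 and Plaur alone, and Fgg has no box.

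Markers of blood-borne leukocytes, which are known to carry the urokinase receptor, were mostly higher in I/R, as Plau and Plaur were. Across the I/R libraries their pattern differed from that of Plau (18.1, 12.95 and 8.52 CPM) and Plaur (43.4, 32.7 and 21.0 CPM). Neutrophil markers summed to 40.3 CPM in I/R replicate 1 and to 9.85 and 10.2 CPM in replicates 2 and 3, against 4.12 to 5.71 CPM in sham. Of 5 tested, 4 were higher, against 21.8% of all tested genes, and Csf3r did not pass. Retnlg (8, 1 and 1 sham counts) and Mmp8 (4, 0 and 1) passed the count filter through I/R alone and so had to differ. S100a8 (20, 7 and 5) and S100a9 (29, 20 and 1) also needed their I/R libraries to pass it. The defining genes Ly6g and Cxcr2 were too low to be tested. Homeostatic microglia markers went mostly the other way, 4 of 7 lower and 2 higher, with P2ry12 at -1.67 and Tmem119 at -0.68. The gene most like Plaur in its pattern was Ms4a6d, a gene of macrophages, followed by the neutrophil-attracting chemokine gene Cxcl1. The part of these cells in the Plau and Plaur results was not tested.

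Per length, the order of the genes changed with I/R. By the deposited FPKM, F3 stood first in sham at 30.8 ± 1.41 FPKM, then Plat at 17.98 ± 0.772 and Thbd at 5.71 ± 0.170, and none of these overlapped. Plau (0.721 ± 0.140), Plaur (0.707 ± 0.490) and F13a1 (0.630 ± 0.113) followed and could not be ranked against each other, since their libraries overlapped. Fgg (0.0473 ± 0.0179) stood above Fga (0.0102 ± 0.00962) and Fgb (0.00624 ± 0.0059), all near the floor. In I/R, F3 (47.9 ± 4.48), Plat (40.6 ± 8.47), Plaur (31.5 ± 12.3) and Thbd (25.4 ± 12.1) formed 1 group in which each gene overlapped the next. Plau (6.26 ± 2.56) and F13a1 (3.31 ± 1.37) overlapped below it, then came Fga, and Fgg and Fgb were last and overlapped. The deposited FPKM of F3 and Plaur rest on a length shorter than the listed one, 1148 against 1872 bases and 1132 against 2009 bases, so that the listed length would put these genes 1.63 and 1.77 times lower. The place of F3 did not hold on the listed length: in sham it was then at 18.9 ± 0.867 and overlapped Plat, and in I/R it was at 29.4 ± 2.74, below the mean of Plat.

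For each tested gene, the 3 genes nearest in pattern were found by the root mean square difference of centred log2(CPM + 0.5) over the 6 libraries, among 16174 named genes. Both groups enter this measure, and the added 0.5 shrinks differences of low genes. F3 had the closest neighbours, Kctd5 at 0.026, Nup214 and Cep85. Plat was nearest to Prok2 (0.0584), Gm10709 and Noc3l, and Thbd to Tram2 (0.0623), Cdh5 and Chac1. F13a1 was nearest to AA467197 (0.0753), Adamts5 and Phlda3, and Plau to Elf4 (0.0755), Stx11 and Glycam1. Fga was nearest to Trim6 (0.122), A730049H05Rik and Epha2. Plaur had no gene as close, with Ms4a6d at 0.218, Cxcl1 at 0.269 and Slc10a6 at 0.349. Among the 7 tested genes themselves, Thbd and F13a1 were the closest pair at 0.181, and Plaur was the farthest from the others, 1.13 from its nearest, Plau.

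Other genes of coagulation and plasminogen activation were taken from 7 lists of 51 genes, of which 50 were in the table and 36 were tested. Of these, 24 were higher, 2 lower and 10 did not pass, against 21.8% higher and 19.9% lower of all tested genes. Tfpi2 and Serpinb2, at the floor in every sham library, entered the test through I/R alone and so had to differ, and without them 22 of 34 were higher. These 22 still include F2rl2 and F2rl3, whose sham counts were also too low for the count filter. With at least 10 counts required in every library, 20 genes of these lists were higher. The median log2 fold change of the 36 was 1.39, and 0.03 over all tested genes. In 29 of the 36 the groups did not overlap, against 57.4% of all tested genes.

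**Figure D4:**
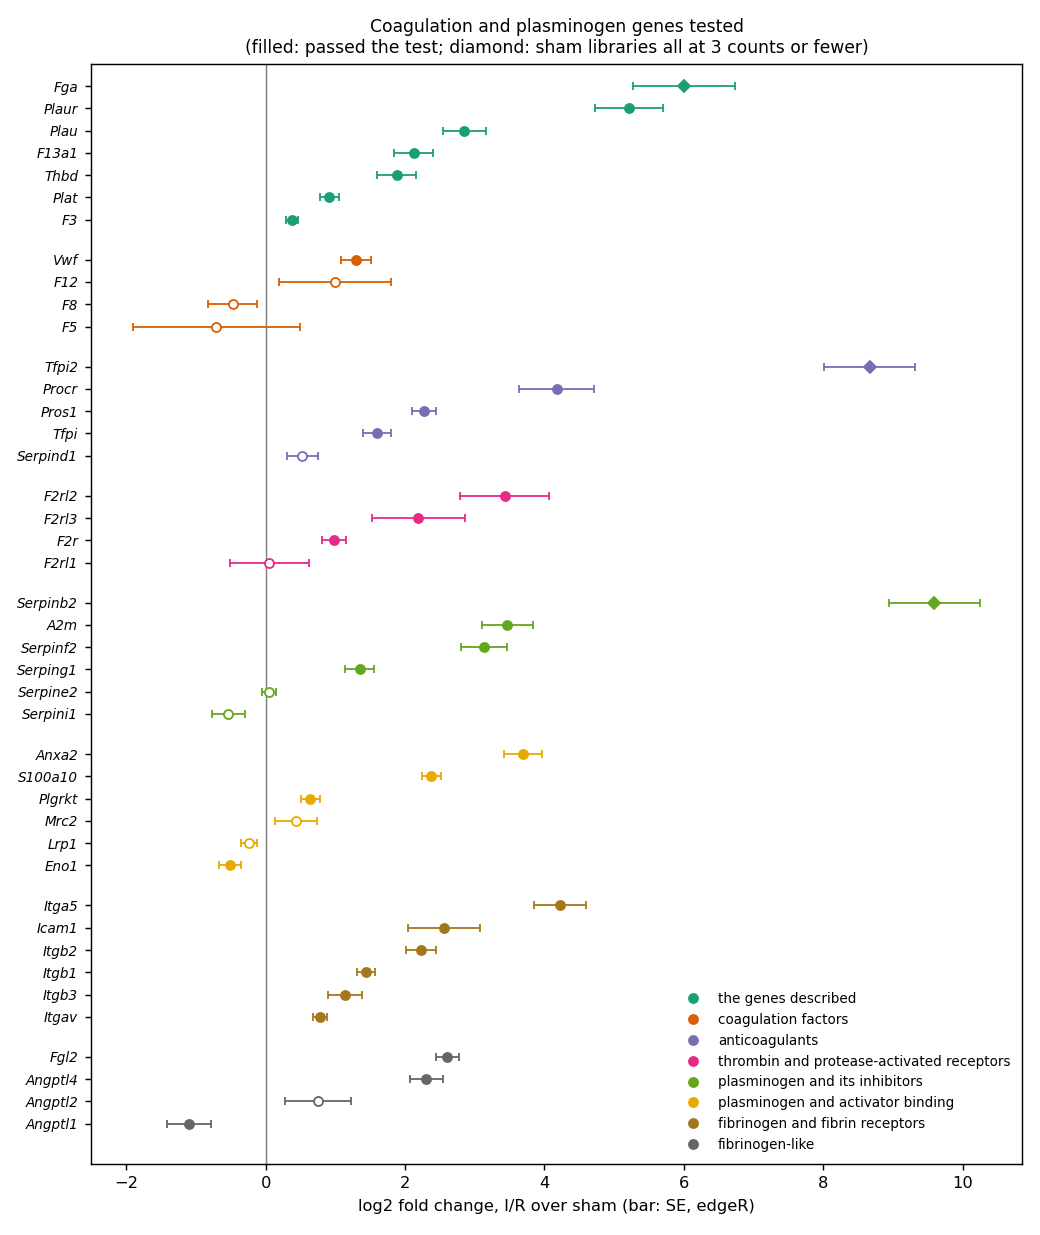
Log2 fold changes of I/R over sham with their SE (x axis, edgeR) for the tested genes described here and 35 other tested genes of 7 coagulation and plasminogen lists, sorted within each list. Filled symbols passed the test, diamonds had all sham libraries at 3 counts or fewer, and 23 of these 35 genes lie filled on the right of 0 against 2 on the left, Eno1 and Angptl1.

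Coagulation factors themselves were mostly too low to be tested, with 4 of 11 tested, 1 higher and 3 not passing. That was Vwf, von Willebrand factor of endothelium and platelets, at 102 ± 30.3 CPM after I/R against 41.6 ± 7.16 CPM after sham surgery (log2 fold change 1.30, SE 0.22, edgeR adjusted p = 0.00285). Some factors, chosen after their values were seen, stood out by library. F5, factor V, had 987, 1324 and 96 counts after I/R against 54, 1283 and 2086 after sham surgery, so that it was low in the libraries where choroid plexus markers were low, and it did not pass (-0.71, SE 1.19, edgeR adjusted p = 0.667). With the choroid plexus list as a covariate it passed as higher (0.48, edgeR adjusted p = 0.021). F10, factor X, had 98, 5 and 5 counts in I/R and 0 in every sham library, and was not tested.

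Of the anticoagulants, 4 of 5 tested genes were higher and none lower, against 21.8% higher of all tested genes. Procr, the endothelial protein C receptor that works beside thrombomodulin, had 891, 270 and 260 counts after I/R against 14, 32 and 23 after sham surgery (log2 fold change 4.17, SE 0.54, edgeR adjusted p = 0.0012, and 3.45 without I/R replicate 1). Pros1, the protein C cofactor protein S, went from 13.6 ± 0.210 to 65.4 ± 16.8 CPM (2.27), and Tfpi, the inhibitor of tissue factor, from 3.86 ± 0.464 to 11.7 ± 2.51 CPM (1.60). Tfpi2, a related inhibitor, had 284, 208 and 120 counts after I/R against 0, 1 and 0 after sham surgery, at least 60.7-fold higher. It was tested only through its I/R libraries, and without it 3 of 4 were higher. Serpind1 did not pass (0.52, edgeR adjusted p = 0.0977), but it did with library size only as scaling (0.78, edgeR adjusted p = 0.0285).

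Of the thrombin and protease-activated receptors, 3 of 4 were higher, against 21.8% of all tested genes. F2r, the main thrombin receptor PAR1, rose from 7.02 ± 0.626 to 13.8 ± 2.64 CPM (0.98, SE 0.17, edgeR adjusted p = 0.00334). F2rl2 (3.43) and F2rl3 (2.19) rose from very low levels, with 4, 12 and 9 sham counts for F2rl2 and 3, 6 and 3 for F2rl3. Both passed the count filter only with their I/R libraries, so the filter itself favoured a higher value in I/R. F2rl3 no longer passed without I/R replicate 1, without any of the sham replicates or with the replicate block (2.04, edgeR adjusted p = 0.0693). F2rl1, with 6 to 24 counts per library, did not pass (0.05, SE 0.57, edgeR adjusted p = 0.952).

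Of plasminogen and the inhibitors of its activators and of plasmin, 5 of 7 tested genes were higher and none lower. Over all tested genes 21.8% were higher. Serpinb2, an inhibitor of urokinase and tPA, had 117, 105 and 82 counts in I/R and 0 in every sham library, at least 30.5-fold higher. It could be tested only because of those I/R counts, and 4 of the other 6 genes were higher. A2m (3.47), Serpinf2 (3.14) and Serping1 (1.35), inhibitors of plasmin or of related proteases, also rose. The inhibitors known from brain cells did not pass: Serpine2, protease nexin-1, had 161 ± 16.7 and 156 ± 4.80 CPM in I/R and sham (0.04, SE 0.10, edgeR adjusted p = 0.758), and Serpini1, neuroserpin of neurons, had 169 ± 57.9 and 244 ± 7.14 CPM (-0.54, SE 0.24, edgeR adjusted p = 0.103), although it passed as lower without I/R replicate 1 (-0.28, edgeR adjusted p = 0.00283) or I/R replicate 3 (-0.78, 0.0331). Plg, plasminogen itself, had 0, 1 and 2 counts after I/R against 0, 1 and 0 after sham surgery, all at or under the floor.

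Surface proteins that bind plasminogen or its activators gave 3 higher and 1 lower of 6, against 21.8% higher and 19.9% lower of all tested genes. Anxa2 (3.69) and S100a10 (2.38), which form a complex that binds plasminogen and tPA, rose 12.9-fold and 5.20-fold in mean CPM, and Plgrkt, a plasminogen receptor, rose by 0.64. Eno1, a glycolytic enzyme that also binds plasminogen, was lower (-0.51, SE 0.16, edgeR adjusted p = 0.0331). That call was held by 9 of 18 alternatives and was lost without any of the sham replicates (edgeR adjusted p of 0.0727, 0.116 and 0.0869) and with library size only (-0.27, 0.132). Of the stretches of 50 bases in Eno1 transcripts, 26.0% occur in other genes, Eno1b among them, so its counts are uncertain. Lrp1, the receptor that clears tPA and urokinase with their inhibitors, did not pass (-0.24, SE 0.11, edgeR adjusted p = 0.122), passed as lower without I/R replicate 1 (-0.28, 0.00462), and its direction turned with library size only as scaling (0.019).

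Receptors of fibrinogen and fibrin were higher in 6 of 6 tested genes, against 21.8% of all tested genes. Itga5 rose most (4.22, SE 0.37, edgeR adjusted p = 0.000363), followed by Icam1 (2.56), the leukocyte integrin chain Itgb2 (2.23), Itgb1 (1.44), Itgb3 (1.14) and Itgav (0.78). Icam1 no longer passed without I/R replicate 1 (1.98, edgeR adjusted p = 0.0759), nor when edgeR was run with no count filter. Itgam, the partner of Itgb2 in the fibrinogen receptor of microglia and leukocytes, is listed at 0 in all 6 libraries, although microglia are known to express it, so that no statement on its level is made. Of the genes like fibrinogen in sequence, Fgl2 (2.61) and Angptl4 (2.30) were higher and Angptl1 (-1.10, edgeR adjusted p = 0.0241) lower. The Angptl1 call was held by 8 of 18 alternatives and was lost with the replicate block (edgeR adjusted p = 0.0613), with library size only (0.0689) and without any 1 library other than I/R replicate 1.

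The changes of the 7 tested genes were compared over the processing alternatives. Plat, Thbd, F13a1, Plau and Plaur were higher in I/R with an edgeR, DESeq2 or limma adjusted p under 0.05 in every alternative fit, and so was Fga in every one that kept it. F3 failed in the 4 libraries named above. A required fold over 2 removed F3 and Plat. The widest spread was that of Fga, from 0.88 with limma on log2(FPKM + 1), where the added 1 is about as large as its level in I/R, to 6.80 without sham replicate 2.

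**Figure D5:**
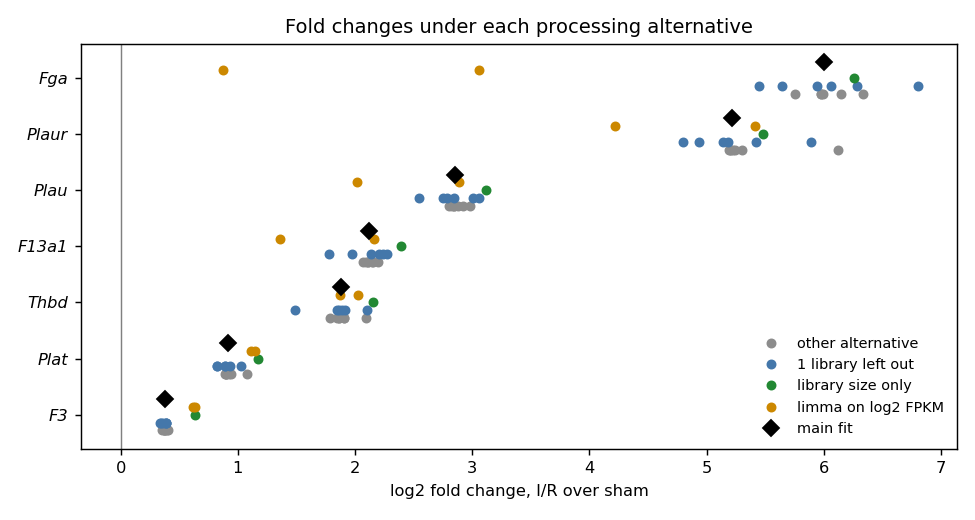
Log2 fold changes of I/R over sham (x axis) of the 7 tested genes under the processing used in the text (black diamonds) and under each alternative (circles, with library left out, library size only and limma on log2 FPKM in their own colours). Every point lies above 0, from 0.34 for F3 to 6.80 for Fga, and the 2 lowest Fga points are the fits on FPKM with an added constant.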

How the data were processed

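RNA of 6 libraries (3 I/R, 3 sham) was sequenced, and 1 table for the series was used. Per its methods, the authors aligned reads with TopHat 2 to an Ensembl genome and counted them per gene with HTSeq 0.6.1p2. The deposited counts are raw, and the deposited FPKM are the authors' counts per length and library total. The submitters' processing notes name Bowtie 0.12.2 and mm8, whereas 40303 of 41386 identifiers are of Ensembl's BALB/cJ annotation, so reads of C57BL/6 mice (C57BL/6J in the methods) were counted against another strain's genes. Strand use is not given in the sources used here. The deposited group means (FPKM and a normalized signal) and the authors' fold changes and p-values were not used. Split lines (4) were rejoined.

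The test across genes was that of edgeR 4.0.16 under R 4.3.3 (filterByExpr, TMM, glmQLFit with robust estimation, glmQLFTest, no covariates), with the SE as the log2 fold change over the square root of F. The fit was tested on simulated data. DESeq2 1.42.0 and limma 3.58.1 on log2(FPKM + 1) and log2(FPKM + 0.1) were alternatives. A floor of 3 counts per library was set, and floors and intervals cover counting error only. Nothing in the labels gives separate origins beyond the replicate numbers, so p-values measure the spread between these pools. The genes described, the gene lists and the motifs were chosen with earlier results of these data known. Named genes were the 9 genes, 16 others named whatever their values (1 of them is not reported here), the 4 largest changes that passed in each list and the 3 nearest genes in pattern. Klkb1 was not analysed here. RefSeq windows matched 6 of the 9 genes, with Plat, Plau and Thbd not matched.

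Replicate numbers are shared by the groups in the labels, but same-numbered libraries did not deviate together (correlations of -0.097, 0.056 and -0.18), so no pairing was used.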

Additional observations from a re-analysis of the deposited data

How the results depend on the processing

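The 7 tested genes higher in I/R and the 24 higher genes of the other lists stayed within 1.5 times these counts under each alternative run. The count of lower genes in those lists was 2. It was 0 with library size only, with limma on log2(FPKM + 1) or log2(FPKM + 0.1), and in the 4 libraries other than I/R replicate 3 and sham replicate 1 (added after the data were seen). It was 1 with a fold over 2, with the replicate block, or with the choroid plexus list as a covariate, and 0 to 4 with 1 library left out. The replicate block gave 6332 calls over all genes where 7756 were made without it, and a fold over 2 gave 2760. Directions turned for F2rl1, at -0.0255 with the replicate block and from -0.41 to 0.37 over the fits that each left 1 library out, for Lrp1, at 0.0186 with library size only and 0.0159 and 0.0160 with the limma fits, and for Serpine2, from -0.043 to 0.088 over the fits that each left 1 library out. None of these 3 genes had passed. With library size only, 75.7% of 8360 calls were higher, against 52.3% of 7756. The cause was not tested. Of the other gene values under alternatives, 630 kept direction and side of the threshold, 35 lost it, 3 gained it and 8 turned. Depth limits Fgb, Fgg and Plg, whose counts are near the floor.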

Other observations

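Fibrinogen belongs to the acute-phase proteins, which the liver releases in inflammation, and other genes of that group also changed in the hippocampal libraries. Of 12 genes, 8 were tested and 5 were higher, with none lower, against 21.8% higher of all tested genes. Saa3 had 1511, 241 and 259 counts after I/R against 0, 1 and 1 after sham surgery, at least 192-fold higher, or 78.9-fold without I/R replicate 1. It entered the test through I/R alone, and without it 4 of 7 were higher. The haptoglobin gene Hp, still among these 4, had 4, 3 and 4 sham counts and likewise passed the count filter through I/R alone. Serpina3n, known from reactive astrocytes, rose from 56.9 ± 4.25 to 755 ± 263 CPM (log2 fold change 3.73, SE 0.25, edgeR adjusted p = 0.000215). Lcn2 (4.88) and the haptoglobin gene Hp (4.22) also rose, with I/R replicate 1 far above the other libraries in both, and without that replicate Hp was at 3.15 and Lcn2 no longer passed (4.25, edgeR adjusted p = 0.0706). Lcn2 also did not pass when edgeR was run with no count filter, and without sham replicate 1 it was at 6.70. Saa1, Saa2 and Orm1 are listed at 0 in all libraries.

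Other marker lists moved as follows, where 21.8% of all tested genes were higher and 19.9% lower. Fibroblast markers summed to 132 to 214 CPM in I/R and 81.2 to 100 CPM in sham, with 4 of 6 higher. Oligodendrocyte markers were lower in 3 of 6, astrocyte markers higher in 2 and lower in 3 of 6, and pericyte and smooth muscle markers higher in 2 and lower in 2 of 6. Of the choroid plexus markers 1 of 7 was lower, and the single erythrocyte marker in the table did not pass.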
